A study of Mus musculus with 9 samples.

Results

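The genes described are 10 mouse antiviral effectors that interferons induce, Ifit1, Ifit2, Ifit3, Ifit3b, Isg15, Isg20, Usp18, Herc6, Rsad2 and Cmpk2. They were taken by symbol from a table of 55367 gene symbols, and all 10 were among the 13707 genes with enough counts to be tested. Monocytes of adult mice were kept for 4 h with platelets of mice at P7, the usual abbreviation of postnatal day 7, with platelets of adult mice, or with buffer alone as control. The cells were then washed and their polyadenylated RNA was sequenced, with 3 libraries per group and 9 in all. The labels name no strain, sex, monocyte source or platelet dose. Nothing in them says that the 3 libraries of a group came from different animals or cultures, and a p-value here reflects only how far those libraries lie apart, which may be technical.

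Type I interferons signal through the receptor chains IFNAR1 and IFNAR2 to ISGF3, a complex of transcription factors that binds a DNA element called the interferon-stimulated response element. Cells respond by making effector proteins that bind, modify or degrade viral RNA and proteins. IFIT proteins bind RNA ends and translation factors, ISG15 is a ubiquitin-like protein that is attached to other proteins, ISG20 is an RNA exonuclease, and viperin, the product of Rsad2, turns the nucleotide CTP into a chain terminator of viral polymerases. Monocytes and macrophages are known to induce these genes after sensing of viral or bacterial products.

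The promoters of the members with an element core are shown first, because the members rose together with P7 platelets. RefSeq promoter windows (GRCm38.p6, 250 bases before to 50 after a start site) were at hand for 9 of the 10 genes, all but Usp18. The core searched was GAAA, any 2 bases and GAAA, or TTTC, any 2 bases and TTTC where it lies on the other strand. It occurs in 5 of the 9 genes, Ifit1, Ifit3, Ifit3b, Isg15 and Rsad2. Counted by window, it occurs in 5 of the 12 windows of the 9 genes and in 3.44% of all 32851 windows. The 200 bases before the start of each are printed 5′ to 3′ on the gene's strand, with the bases of the core in capitals. They lie at chr19:34640689-34640888 (Ifit1, plus strand), chr19:34583329-34583528 (Ifit3, plus), chr19:34607757-34607956 (Ifit3b, plus), chr4:156200819-156201018 (Isg15, minus) and chr12:26456453-26456652 (Rsad2, minus).
Ifit1: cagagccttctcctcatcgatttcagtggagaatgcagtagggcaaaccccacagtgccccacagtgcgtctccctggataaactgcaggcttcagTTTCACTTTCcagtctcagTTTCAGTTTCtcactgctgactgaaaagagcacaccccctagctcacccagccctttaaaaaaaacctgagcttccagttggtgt
Ifit3: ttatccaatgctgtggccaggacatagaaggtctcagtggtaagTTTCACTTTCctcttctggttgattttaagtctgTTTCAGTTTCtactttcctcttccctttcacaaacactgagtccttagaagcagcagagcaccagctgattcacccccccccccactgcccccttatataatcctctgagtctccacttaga
Ifit3b: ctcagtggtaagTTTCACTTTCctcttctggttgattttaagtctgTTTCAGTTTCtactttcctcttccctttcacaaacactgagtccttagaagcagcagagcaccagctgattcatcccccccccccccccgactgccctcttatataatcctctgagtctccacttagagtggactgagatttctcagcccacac
Isg15: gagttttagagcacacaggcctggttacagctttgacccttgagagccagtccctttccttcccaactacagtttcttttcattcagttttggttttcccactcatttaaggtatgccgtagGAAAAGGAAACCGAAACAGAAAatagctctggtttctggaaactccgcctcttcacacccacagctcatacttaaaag
Rsad2: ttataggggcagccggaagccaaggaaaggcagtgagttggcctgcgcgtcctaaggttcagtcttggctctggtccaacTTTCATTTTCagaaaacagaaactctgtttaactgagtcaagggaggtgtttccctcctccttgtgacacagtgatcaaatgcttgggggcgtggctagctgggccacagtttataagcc
Ifit1, Ifit3 and Ifit3b carry the same pair of cores, TTTCACTTTC and TTTCAGTTTC. Isg15 carries 3 cores that overlap in 1 run of 22 bases, and Rsad2 carries 1, TTTCATTTTC. The Ifit3 and Ifit3b windows are near copies over the stretch that aligns, with 259 of 260 aligned bases identical. Inserted or missing bases and the unaligned ends of the windows were not counted. The windows of Ifit2, Isg20, Herc6 and Cmpk2 do not hold these letters. A GAS element (TTCNNNGAA, the same letters on both strands) occurs in 2 of the 12 windows, of Isg20 (TTCTTGGAA) and Ifit2 (TTCCTGGAA), and in 8.30% of all windows. An NF-kB element (GGGA, any 2 bases and TTCC, or GGAA, any 2 bases and TCCC) also occurs in 2 of the 12 windows. These are of Isg20 (GGGACCTTCC) and Ifit2 (GGGAGCTTCC), and 1.47% of all windows hold the element. In Ifit2 both matches lie in the same window and overlap, while in Isg20 they lie in windows of different start sites. These are matches of letters and no measure of binding. Of 390 other tested genes with the interferon element core in a window, 154 (39.5%) were higher with P7 platelets than in control, against 3011 of 9643 (31.2%) without it.

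Levels are given as normalised CPM (counts of a gene relative to the TMM-scaled library total), as means ± SD over n = 3 libraries. Log2 fold changes are given ± SE with Benjamini-Hochberg adjusted p over all tested genes from edgeR's quasi-likelihood test, and a gene was called at an adjusted p below 0.05. Total counts ranged from 29687341 to 37065564 per library. All 7 monocyte markers listed were measured, with summed levels of 25300 to 30800 CPM with P7 platelets, 24000 to 28600 with adult platelets and 21800 to 23600 in control, and with P7 platelets 5 of them were called higher than in control and 1 lower. All 13 platelet markers were called higher with either kind of platelets than in control, with summed levels of 1170 to 1320 CPM with P7 platelets, 561 to 925 with adult platelets and 23.0 to 25.7 in control, where Gp1bb and Gp6 had no count. Of 7 erythroid markers, 7 were called higher with P7 and 6 with adult platelets, and their summed levels were 48900 to 61100 CPM with P7 platelets, 473 to 1740 with adult platelets and 10.1 to 13.1 in control. In bulk RNA, more cells that express a gene and more of its RNA per cell cannot be told apart, and whether a transcript came from monocytes or from cells and fragments added with the platelets was not tested. Libraries also differed in B cell and plasma cell transcripts, whose sum was 483 to 916 CPM in P7 replicate 1, adult platelet replicates 1 and 3 and control replicate 1, and 152 to 241 in the other 5. Conventional dendritic cell markers summed to 30.9 to 45.2 CPM with P7 platelets, 40.4 to 71.8 with adult platelets and 55.0 to 72.7 in control, and of 4 tested 1 was called higher and 2 lower with P7 platelets than in control. Plasmacytoid dendritic cell markers summed to 10.2, 14.7 and 32.1 CPM in adult platelet replicates 1, 2 and 3, 11.4 to 17.8 with P7 platelets and 8.45 to 12.3 in control. Neutrophil markers summed to 172, 144 and 297 CPM in adult platelet replicates 1, 2 and 3, 130 to 141 with P7 platelets and 138 to 156 in control. No marker of these 2 cell types was called in any comparison. The part of these differences in the results was not tested.

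**Figure D1:**
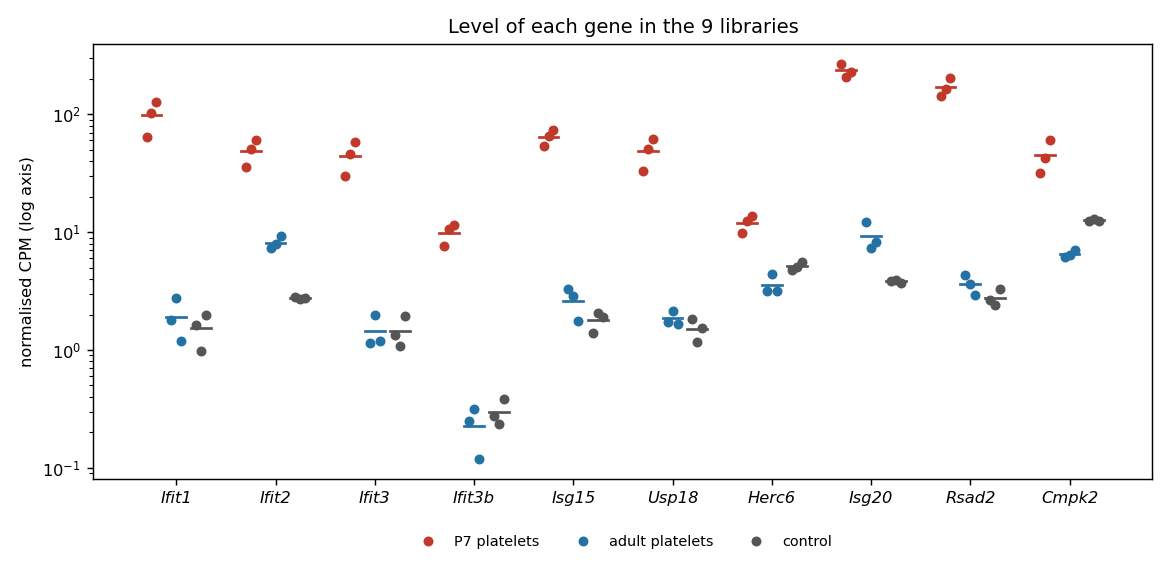
Normalised CPM (log axis) of each gene in every library, with P7 platelets (red), adult platelets (blue) and control (grey). Points are libraries and bars are means of 3 libraries. The P7 values of all 10 genes lie above those of both other groups, and the adult platelet values of Ifit2 and Isg20 lie above control while those of Herc6 and Cmpk2 lie below it.

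With P7 platelets all 10 genes rose over control, against 29.9% of all tested genes called higher and 59.2% called in either direction. Of the 10, 8 were called at least 8-fold higher, a size that 2.61% of all tested genes reached. The members' log2 fold changes ran from 1.22 for Herc6 to 6.0 for Ifit1 with a median of 5.02, beside a median of -0.01 over all tested genes. No library with P7 platelets overlapped with control for any of the 10, as was so for 69.1% of all tested genes. Summed, the 10 genes made up 0.0613, 0.0675 and 0.0794% of the counts with P7 platelets, 0.00427, 0.00404 and 0.00385% with adult platelets and 0.00363, 0.00353 and 0.00379% in control. The mean share was 19.0 times as high with P7 platelets as in control and 1.11 times as high with adult platelets, and in both pairs the ranges were separate (p = 0.1 in a two-sided exact permutation test, which cannot go lower with 3 libraries against 3). Isg20 held the most counts of the 10 in each P7 library (8026, 5539 and 7160), followed by Rsad2 (4290, 4359 and 6325). With upper-quartile scaling the median of all genes moved by -0.10 and the calls over all genes split into 3279 higher and 5012 lower, against 4097 and 4014 with TMM, while all 10 genes were still called higher.

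The IFIT genes lie in 1 cluster on chromosome 19 (chr19:34550694-34650009, GENCODE M21 on GRCm38). Ifit1, whose protein binds the capped ends of RNA that lack host methylation, stood at 64.4, 103 and 128 CPM with P7 platelets, at 1.81, 2.75 and 1.19 with adult platelets and at 1.63, 0.971 and 2.0 in control. Its level with P7 platelets was 63.9-fold that of control (log2 fold change 6.0 ± 0.36, adjusted p = 1.89e-06), rank 129 of all tested genes by fold change. Ifit2, whose protein forms complexes with other IFIT proteins, had 35.8, 50.4 and 60.9 CPM with P7 platelets, 7.29, 7.87 and 9.31 with adult platelets and 2.8, 2.7 and 2.76 in control. The 3 groups of Ifit2 did not overlap, and its rise with P7 platelets (4.15 ± 0.20, adjusted p = 7.35e-07) was the smallest of the 4 IFIT members.

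Ifit3 is an IFIT partner protein gene, and Ifit3b is a near copy of it in the mouse. Ifit3 stood at 30.2, 46.1 and 57.7 CPM with P7 platelets, at 1.15, 1.97 and 1.19 with adult platelets and at 1.33, 1.08 and 1.95 in control (4.94 ± 0.31 for P7 platelets against control, adjusted p = 2.31e-06). Ifit3b had 7.56, 10.7 and 11.4 CPM with P7 platelets, 0.249, 0.315 and 0.119 with adult platelets and 0.275, 0.236 and 0.380 in control, which were 4 to 11 counts in adult platelet libraries and 9 to 15 in control libraries. It rose by 5.03 ± 0.29 with P7 platelets (adjusted p = 1.82e-06). It passed the filter on low counts in 3 P7, 1 adult platelet and 2 control libraries, while the other 9 genes passed in all 9 libraries. Of the 75-base stretches of the longest transcript, as long as the reads, 41.11% in Ifit3 and 35.67% in Ifit3b also occur in the other gene, so the split of reads between them is uncertain. Their summed counts gave 4.96 ± 0.29 for P7 platelets against control and -0.07 ± 0.36 for adult platelets against control.

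A pair of further IFIT1-like genes lies within the cluster. Ifit1bl1 had 10.8, 15.0 and 17.8 CPM with P7 platelets, 1.03, 0.944 and 1.01 with adult platelets and 0.825, 0.604 and 1.06 in control. It rose with P7 platelets (4.12 ± 0.24, adjusted p = 1.62e-06) and was not called with adult platelets (0.25 ± 0.26, adjusted p = 0.511). Ifit1bl2 averaged 0.474 CPM with P7 platelets and 0.137 in control (1.76 ± 0.55, adjusted p = 0.0203), a call that was lost without P7 replicate 2 or control replicate 2 (adjusted p = 0.0578 to 0.0702). It had only 11, 16 and 14 counts with P7 platelets, 6, 8 and 12 with adult platelets and 1, 5 and 10 in control. The filter on low counts kept Ifit1bl2 only because of the P7 libraries, the group where it was highest. Its higher call is thus not independent of the filter. Of the 75-base stretches of the longest Ifit1 transcript, 5.19% also occur in Ifit1bl2. The part of such shared reads in the rise of Ifit1bl2 was not tested. The nearest tested genes outside the cluster were Lipa, the lysosomal acid lipase gene, higher with P7 platelets (0.83 ± 0.19, adjusted p = 0.00439), and Pank1, a pantothenate kinase gene, lower (-0.60 ± 0.10, adjusted p = 0.000531).

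**Figure D2:**
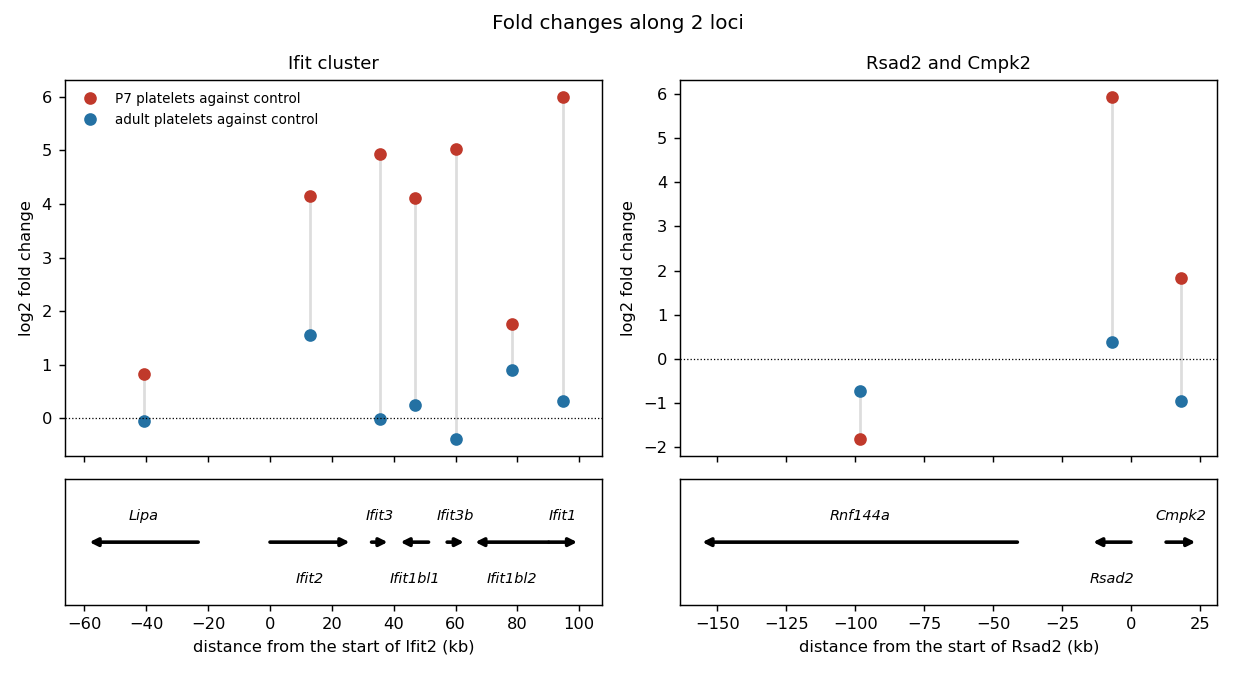
Log2 fold changes against control of the genes along the Ifit cluster (left) and the Rsad2 and Cmpk2 locus (right), by distance in kb from the start of Ifit2 or Rsad2, for P7 platelets (red) and adult platelets (blue). Arrows show the direction of each gene. Ifit1 lies at 6.0 with P7 and 0.32 with adult platelets, and Cmpk2 at 1.83 and -0.95.

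The ISG15 system had members that rose by very different amounts. Isg15 (chr4:156199424-156200818) stood at 54.2, 66.1 and 74.0 CPM with P7 platelets, at 3.27, 2.86 and 1.75 with adult platelets and at 1.38, 2.05 and 1.92 in control. The P7 libraries lay far above both other groups (36.3-fold over control, 5.18 ± 0.22, adjusted p = 4.67e-07), and the adult platelet libraries overlapped with control. Usp18 (chr6:121245906-121270917) encodes the protease that takes ISG15 off its targets and also dampens signalling at IFNAR2. It had 33.1, 51.2 and 61.7 CPM with P7 platelets, 1.74, 2.15 and 1.66 with adult platelets and 1.83, 1.18 and 1.54 in control, a rise of 5.0 ± 0.26 with P7 platelets (adjusted p = 1.07e-06).

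Herc6 (chr6:57581000-57664632), the main ligase gene for ISG15 in the mouse, had the smallest change of the members with P7 platelets. It stood at 9.87, 12.5 and 13.6 CPM with P7 platelets, at 3.14, 4.38 and 3.17 with adult platelets and at 4.80, 5.07 and 5.62 in control. The 3 groups did not overlap, with P7 platelets highest and adult platelets lowest (1.22 ± 0.16 for P7 platelets against control, adjusted p = 0.000144). An annotated transcript on the same strand, Gm45193, shares 13.657% of the exon bases of Herc6 and had no count in any library, so reads from that stretch may be missing from both.

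The conjugating enzymes that were not members moved differently from each other. Of 3 partners listed, 2 were called higher with P7 platelets and 1 lower, against 29.9% and 29.3% of all tested genes. Ube2l6, the E2 enzyme gene, had 514, 393 and 451 CPM with P7 platelets, 21.5, 12.4 and 9.99 with adult platelets and 9.43, 8.24 and 8.23 in control, a rise of 5.71 ± 0.27 with P7 platelets (adjusted p = 7.31e-07). With adult platelets it missed the threshold (0.76 ± 0.25, adjusted p = 0.0512) and passed it without adult platelet replicate 3 (adjusted p = 0.0144), with no filter on low counts (0.0108), with a stricter filter (0.0478) and with DESeq2's Wald test (0.0431, each an adjusted p). Uba7, the E1 enzyme gene, rose by 0.78 ± 0.11 (adjusted p = 0.00026), with a mean of 39.5 CPM with P7 platelets against 23.0 in control. Trim25, which encodes another ligase that accepts ISG15, averaged 213 CPM with P7 platelets, 194 with adult platelets and 423 in control and fell with both (-0.99 ± 0.21, adjusted p = 0.00261, and -1.13 ± 0.21, adjusted p = 0.00452).

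Isg20 (chr7:78913424-78920396), the exonuclease gene, had the highest level of the members with P7 platelets, also per exon length. It stood at 269, 209 and 230 CPM with P7 platelets, at 12.1, 7.38 and 8.33 with adult platelets and at 3.83, 3.96 and 3.72 in control. None of the 3 groups overlapped, and the rise was 5.94 ± 0.19 with P7 platelets (adjusted p = 2.67e-07) and 1.27 ± 0.19 with adult platelets (adjusted p = 0.00144). Its libraries ranked unlike those of the other members. Among the P7 libraries, replicate 1 was the lowest and replicate 3 the highest for 9 of the 10 genes, and the exception was Isg20, which was highest in replicate 1. The summed erythroid transcripts were 61100, 48900 and 55800 CPM in P7 replicates 1, 2 and 3, the same order as Isg20, and 1740, 633 and 473 CPM in the adult platelet replicates, of which replicate 1 was also highest for Isg20. Ube2l6 had the order of the erythroid sum in both platelet groups. In control replicates 1, 2 and 3 the erythroid sum was 11.5, 10.1 and 13.1 CPM and Ube2l6 was 9.43, 8.24 and 8.23 CPM. There neither Ube2l6 nor Isg20 had the order of the erythroid sum. Whether Isg20 and Ube2l6 transcripts came from red cell precursors carried with the platelets was not tested.

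**Figure D3:**
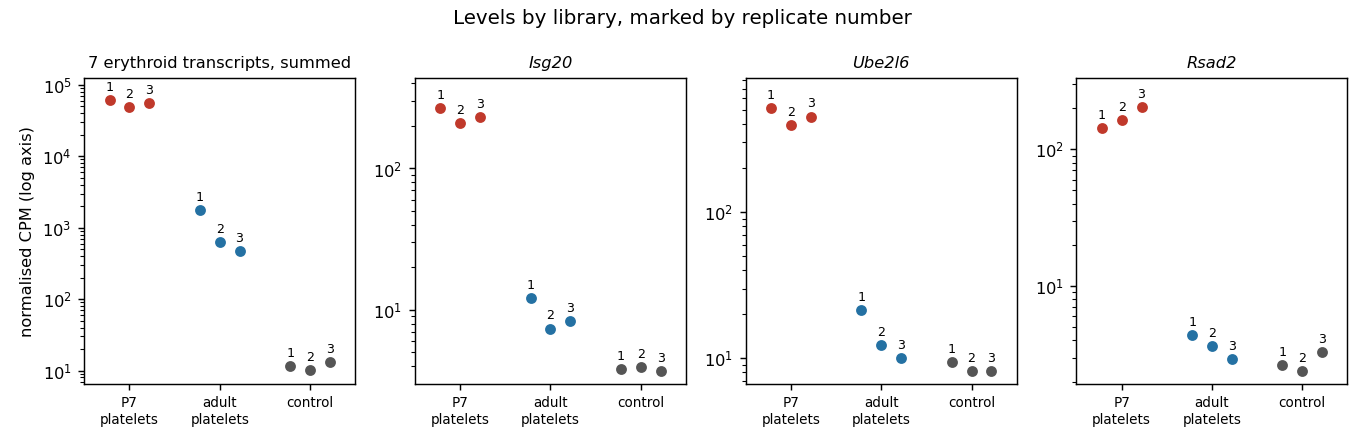
Normalised CPM (log axis) of 7 summed erythroid transcripts, Isg20, Ube2l6 and Rsad2 in each library, marked by replicate number. With P7 platelets Isg20 and Ube2l6 are highest in replicate 1, as the erythroid sum is, while Rsad2 is highest in replicate 3.

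Rsad2 and Cmpk2 lie beside each other on chromosome 12 with divergent starts, 12751 bases apart (Rsad2 at chr12:26442746-26456452 on the minus strand, Cmpk2 at chr12:26469204-26479837 on the plus strand). Cmpk2 encodes a mitochondrial kinase of UMP and CMP, the first step from CMP towards the CTP that viperin uses. Rsad2 had 144, 164 and 203 CPM with P7 platelets, 4.36, 3.66 and 2.94 with adult platelets and 2.63, 2.41 and 3.29 in control. It rose 61.2-fold with P7 platelets (5.94 ± 0.19, adjusted p = 2.67e-07). Cmpk2 stood at 32.0, 42.8 and 60.4 CPM with P7 platelets, at 6.13, 6.46 and 7.0 with adult platelets and at 12.5, 13.0 and 12.4 in control. It was the most abundant member in control, also per exon length, and rose 3.57-fold with P7 platelets (1.83 ± 0.19, adjusted p = 4.04e-05). The nearest tested gene on the Rsad2 side, Rnf144a, a ubiquitin ligase gene, fell with both P7 platelets (-1.81 ± 0.14, adjusted p = 8.03e-06) and adult platelets (-0.74 ± 0.13, adjusted p = 0.00397).

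Ratios of members of the same locus within a library do not depend on how libraries are scaled. The log2 ratio of Rsad2 to Cmpk2 counts was 1.95 ± 0.21 with P7 platelets, -0.85 ± 0.38 with adult platelets and -2.19 ± 0.26 in control, so Cmpk2 had more counts than Rsad2 in control and fewer with P7 platelets. The log2 ratio of Ifit2 to Ifit1 was -0.98 ± 0.12 with P7 platelets, 2.16 ± 0.73 with adult platelets and 0.90 ± 0.51 in control. For both ratios the ranges were separate in every pair of groups (p = 0.1 by exact permutation, two-sided, for each of the 6 pairs, the smallest it can be, and 0.15 adjusted over 9 tests). The ratio of Ifit3 to Ifit3b was 2.15 ± 0.18, 2.64 ± 0.52 and 2.22 ± 0.10 in the same order of groups, and its values overlapped between all pairs (exact permutation p = 0.2 to 0.6).

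**Figure D4:**
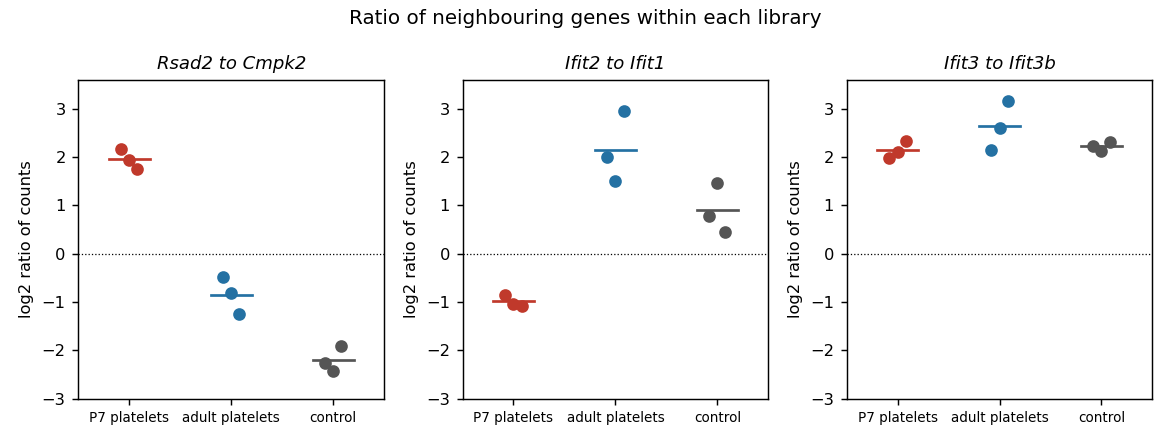
Log2 ratio of the counts of Rsad2 to Cmpk2, Ifit2 to Ifit1 and Ifit3 to Ifit3b in each library (points) with group means (bars). The Rsad2 to Cmpk2 ratio is 1.95 on average with P7 platelets, -0.85 with adult platelets and -2.19 in control, while the Ifit3 to Ifit3b ratios of the groups overlap.

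With adult platelets the members moved both ways. Ifit2 and Isg20 rose (2 of 10, against 14.3% of all tested genes called higher) and Cmpk2 and Herc6 fell (2 of 10, against 12% called lower), shares near those of all genes, of which 26.4% were called. No member was called at least 8-fold higher, as 1.3% of all genes were. The 4 called genes were also those whose libraries did not overlap with control, as was so for 42.7% of all tested genes. The members' median log2 fold change was 0.30, beside -0.00 over all tested genes. Ifit2 averaged 8.15 ± 1.04 CPM with adult platelets and 2.75 ± 0.049 in control (2.96-fold, 1.56 ± 0.20, adjusted p = 0.000733). Cmpk2 averaged 6.53 ± 0.436 CPM with adult platelets and 12.6 ± 0.328 in control (-0.95 ± 0.20, adjusted p = 0.00914). Herc6 averaged 3.56 ± 0.703 CPM with adult platelets and 5.16 ± 0.419 in control (-0.53 ± 0.16, adjusted p = 0.0400). Leaving out P7 replicate 2, adult platelet replicate 1 or 3 or any control replicate ended the Herc6 call (adjusted p = 0.0587 to 0.127), as did limma-voom (adjusted p = 0.0561) and a fit of the 2 groups alone (adjusted p = 0.0552). In all, 3617 genes were called in this comparison, but leaving out control replicate 2 gave 2031 and leaving out control replicate 3 gave 2207.

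The other 6 members were not called with adult platelets, and their intervals show what sizes the data allow. The 95% interval of the log2 fold change was -0.01 to 1.13 for Isg15, -0.07 to 0.86 for Rsad2, -0.40 to 0.97 for Usp18 and -0.68 to 1.32 for Ifit1. It was -0.85 to 0.83 for Ifit3 and -1.22 to 0.46 for Ifit3b. The upper limit of each lies below the smallest lower limit that these same 6 genes had with P7 platelets, 4.25 for Ifit3. Isg15 was called higher without adult platelet replicate 3 (0.78, adjusted p = 0.0327). It was also called when the fit held an added term, chosen after the data were seen, that marks the 4 libraries rich in the immunoglobulin transcript Igkc (0.68, adjusted p = 0.0362).

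**Figure D5:**
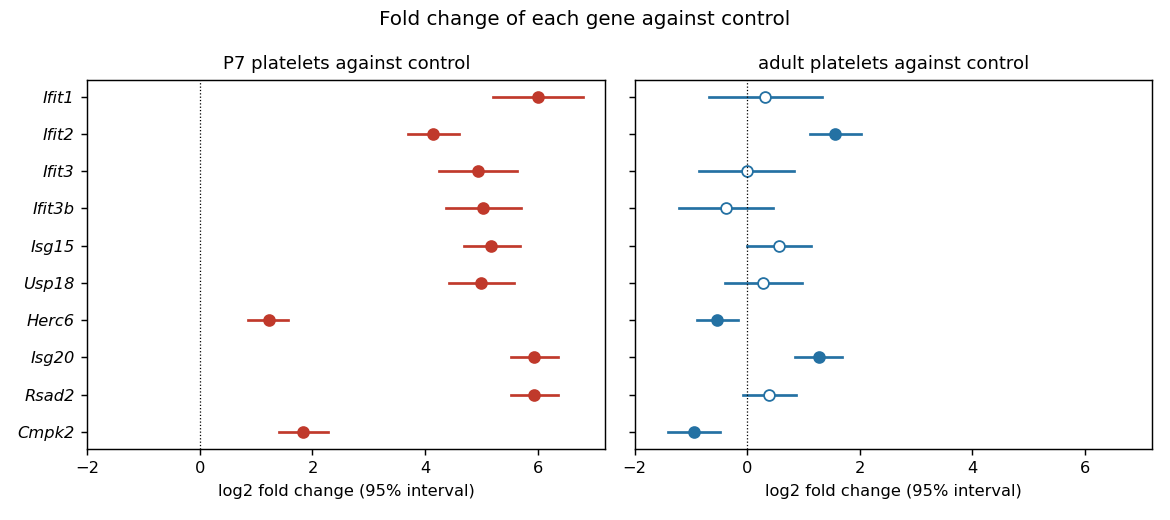
Log2 fold change of each gene against control with its 95% interval, for P7 platelets (left) and adult platelets (right). Filled points were called at an adjusted p below 0.05. All 10 genes are called higher on the left, and on the right Ifit2 and Isg20 are called higher and Herc6 and Cmpk2 lower.

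Both comparisons use the same control libraries, so the kinds of platelets were also compared directly. All 10 genes were higher with P7 than with adult platelets, against 19.7% of all tested genes called higher, 19.8% called lower and 39.6% called in either direction. Of the 10, 7 were at least 8-fold higher, against 0.868% of all tested genes. No libraries overlapped for any of them, as was so for 49.0% of all tested genes. Ifit1 had the largest difference (51.2-fold, 5.68 ± 0.35, adjusted p = 1.17e-05), followed by Rsad2 (5.54 ± 0.18, adjusted p = 1.89e-06) and Ifit3b (5.41 ± 0.31, adjusted p = 8.33e-06). Herc6 (1.75 ± 0.16, adjusted p = 9.73e-05), Ifit2 (2.59 ± 0.18, adjusted p = 2.2e-05) and Cmpk2 (2.79 ± 0.20, adjusted p = 2.79e-05) had the smallest differences. For Herc6 and Cmpk2 the difference joined a rise over control with P7 platelets to a fall below it with adult platelets. Over all genes 2706 were called higher and 2718 lower, and with upper-quartile scaling 2106 and 3556.

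Levels can be compared between genes only per length, and here counts per exon length were scaled to the same total in each library (TPM). With P7 platelets the order was Isg20 (337 ± 37.7), Isg15 (228 ± 36.1), Rsad2 (105 ± 18.4), Ifit1 (98.9 ± 32.4), Ifit3 (68.2 ± 21.2), Usp18 (46.5 ± 14.0), Ifit2 (33.3 ± 8.62), Cmpk2 (28.8 ± 9.11), Ifit3b (13.2 ± 2.81) and Herc6 (3.44 ± 0.571). Isg20 and Isg15 did not overlap with each other or with Rsad2, while neighbours from Rsad2 to Cmpk2 overlapped in range. In control the order was headed by Cmpk2 (12.1 ± 0.342), Isg15 (9.37 ± 1.89) and Isg20 (8.20 ± 0.278), and the remaining 7 lay at 3.30 or below. By exon length Cmpk2 was thus the first of the 10 in control and the eighth with P7 platelets, and by the longest transcript the first and the seventh. By the longest transcript Isg20 also stood above Isg15 in control, and Herc6 moved to the fourth place there.

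Upstream of these genes, several genes from the interferon receptor to ISGF3 were called higher with P7 platelets than in control. Stat2 had 143, 206 and 233 CPM with P7 platelets, 63.0, 62.4 and 55.4 with adult platelets and 69.9, 68.2 and 68.4 in control (1.49 ± 0.15 for P7 platelets against control, adjusted p = 3.17e-05). Irf9 rose by 1.37 ± 0.10, Ifnar1 by 0.59 ± 0.07 and Jak1 by 0.38 ± 0.08. Ifnar2 (-0.14 ± 0.05, adjusted p = 0.0389) lost its call in 6 of 9 fits that left out 1 library (P7 replicates 2 and 3, adult platelet replicate 2 and each control replicate, adjusted p = 0.0568 to 0.129), and Tyk2 (0.06 ± 0.09, adjusted p = 0.613) did not pass, although it was called higher without P7 replicate 1 (adjusted p = 0.0314). With adult platelets Ifnar1 rose (0.48 ± 0.07, adjusted p = 0.00104) and Tyk2 fell (-0.33 ± 0.09, adjusted p = 0.0222), a call that was lost without adult platelet replicate 1 or 3 or any control replicate (adjusted p = 0.0533 to 0.0643).

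Among 8 inducers of interferon genes, 5 were called higher with P7 platelets and 2 lower, against 29.9% and 29.3% of all tested genes, so that the lower share lay near that of all genes. Irf7, an interferon-induced factor that drives interferon genes, stood at 109, 158 and 182 CPM with P7 platelets, 22.1, 24.3 and 19.3 with adult platelets and 24.9, 25.5 and 29.0 in control (2.5 ± 0.17 for P7 platelets against control, adjusted p = 4.47e-06). The kinase gene Ikbke rose by 2.05 ± 0.27, the adaptor genes Myd88 and Ticam1 by 0.83 ± 0.10 and 0.51 ± 0.08, and the kinase gene Tbk1 by 0.31 ± 0.06. The adaptor genes Mavs (-0.63 ± 0.07) and Sting1 (-0.63 ± 0.11) fell, and Irf3 (0.07 ± 0.06) did not pass. With adult platelets 1 of the 8 was called, against 26.4% of all tested genes, and this was Mavs (-0.39 ± 0.07, adjusted p = 0.00301). Of 20 interferon ligand genes, 19 had no count in any library. As a mean over all 9 libraries this allows up to 0.00986 CPM of the total (3 counts over all 9). The level in a single group could lie above this bound, and whether reads of these genes are unique was not tested. Ifnb1 had 12, 23 and 29 counts in the P7 libraries, 0, 4 and 0 with adult platelets and 0, 1 and 0 in control, a ratio of 70.9 per total counts between P7 platelets and control (95% counting interval 12.3 to 2850, which covers counting error only). The filter on low counts kept Ifnb1 only because of the P7 libraries, the group where it was highest.

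Of 7 relatives of the members that are not known as interferon-induced, 3 were called higher with P7 platelets and 1 lower, a share near the 59.2% of all tested genes called in either direction, with log2 fold changes from -1.02 for Herc4 to 0.71 for Aen, an ISG20 relative whose gene lies 2215 bases from Isg20. Cmpk1, the cytosolic relative of Cmpk2, did not pass (-0.12 ± 0.05, adjusted p = 0.0676), although it was called lower without P7 replicate 1 (adjusted p = 0.0411), in a fit of the 2 groups alone (adjusted p = 0.0416), with the term for Igkc (adjusted p = 0.0361) and with upper-quartile factors (adjusted p = 0.00517). The higher calls of Isg20l2 (0.24 ± 0.08) and Herc3 (0.24 ± 0.08) were lost without P7 replicate 2 or 3 and without control replicate 1 or 2, and that of Isg20l2 also without control replicate 3 (adjusted p = 0.0564 to 0.101), and both were lost with upper-quartile factors (adjusted p = 0.135 to 0.146). Herc1 (-0.34 ± 0.13) and Herc2 (-0.37 ± 0.16) did not pass, and both were called lower without adult platelet replicate 1 or control replicate 1, and Herc1 also without adult platelet replicate 2. Both were also called lower with no filter, with DESeq2's Wald test, in a fit of the 2 groups alone and with the term for Igkc (adjusted p = 0.0108 to 0.0408). With upper-quartile factors the 7 relatives split into 1 higher and 4 lower. Of 5 factors that load iron-sulfur clusters onto viperin and other proteins, Ciao2b rose with P7 platelets (0.81 ± 0.08) and Mms19 fell (-0.42 ± 0.06), while Ciao1 (0.10 ± 0.05), Ciao2a (0.14 ± 0.09) and Ciao3 (0.08 ± 0.07) did not pass.

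Other interferon-stimulated antiviral genes gave a measure of how the members compare. All 21 of these were called higher with P7 platelets, against 29.9% of all tested genes. Among them, Ifi44 was kept by the filter on low counts only because of the P7 libraries. It had 21, 24 and 36 counts there, 3, 7 and 1 with adult platelets and 9, 2 and 5 in control. The log2 fold changes of the 21 were 0.85 to 4.80 with a median of 2.29, below the members' median of 5.02. With adult platelets 1 of the 21 was called, against 26.4% of all tested genes. This was Zbp1, a sensor of Z-form nucleic acids, which was lower (-0.67 ± 0.16, adjusted p = 0.015). The log2 fold changes of the 21 with adult platelets had a range of -0.70 to 0.44 and a median of -0.20. Ifit2 (1.56) and Isg20 (1.27) lay above that range and Cmpk2 (-0.95) below it. Leaving out control replicate 3 ended the Zbp1 call, and 3 of the 21 were called lower without P7 replicate 1.

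The genes whose pattern was most like the members' mean were Oasl1, Ifit1bl1, Mx2, Gm12250 and Cdr2. Likeness was the root mean square difference of centred log2 CPM over the 9 libraries, which was 0.178 for Oasl1 and 0.338 for Cdr2. For single members the nearest gene was another member for Ifit1 (Rsad2, 0.314), Rsad2 (Ifit1), Ifit3 (Usp18, 0.253) and Ifit3b (Ifit3, 0.267). Oasl1, an OAS-like antiviral gene, was nearest to both Isg15 (0.336) and Usp18 (0.252). Isg20 was nearest to Tent5c (0.253), a poly(A) polymerase gene, which had 352, 255 and 299 CPM with P7 platelets, 14.8, 10.3 and 13.9 with adult platelets and 6.98, 3.75 and 5.09 in control. Ifit2 was nearest to Gm18445 (0.210), Herc6 to Igsf9 (0.154) and Cmpk2 to Gpr174 (0.178).

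Of the 12 nearest tested genes beside the members' loci, 7 were called higher with P7 platelets and 3 lower, against 29.9% and 29.3% of all tested genes, and the higher calls of Tuba8 and Ppm1k were lost when some single libraries were left out (adjusted p = 0.0714 to 0.146). AW011738, which starts 2486 bases beyond Isg15, had the largest rise of these (3.24 ± 0.32, adjusted p = 2.89e-05), at 1.94, 2.45 and 3.4 CPM with P7 platelets, 0.187, 0.286 and 0.178 with adult platelets and 0.300, 0.341 and 0.177 in control. Agrn, on the other side of Isg15, averaged 13.9 CPM with P7 platelets, 6.68 with adult platelets and 9.59 in control (0.53 ± 0.11 for P7 platelets against control, adjusted p = 0.00298). Aen rose by 0.71 ± 0.07 beside Isg20.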

How the data were processed

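Polyadenylated RNA was read as 75 nt single ends from stranded libraries, per the labels' protocols. The authors deposited 1 table per library with unnormalised read counts for 55367 symbols. Salmon 1.3.0, featureCounts, Subread 2.0.1, STAR 2.7.6a and fastp 0.20.1 appear, per the submitters' processing notes, without their roles. Which build, annotation and strand setting were used, and how reads with several matches were treated, is not given in the sources used here, so reads shared by near copies or overlapping genes may have been dropped or split. Positions and exon lengths come from GENCODE M21 (GRCm38), which names 53292 of the symbols, and promoter sequences from RefSeq (GRCm38.p6).

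Counts of all genes were fitted with edgeR 4.0.16 in R 4.3.3 (quasi-likelihood, 1 mean per group, all 9 libraries, TMM, filterByExpr with a minimum count of 10), which left 6 residual degrees of freedom, a common dispersion of 0.0130 and TMM factors of 0.8817 to 1.10. P-values were adjusted over all 13707 genes of a comparison. Single values were compared by exact permutation over libraries, and log2 ratios within a library used counts + 0.5. Alternatives were other scalings and filters, DESeq2 1.42.0, limma-voom 3.58.1, a replicate block, the 2 compared groups alone, removal of platelet, erythroid and mitochondrial transcripts, and leaving out each library. The method was tested on simulated data. The members and lists were chosen with earlier results of these data known. Named were all members, each gene of a list of at most 9, the nearest tested genes on each side of a locus, the genes most like the members, and single genes of longer lists. No library pair of a group agreed within sampling noise (chi-square per degree of freedom 4.78 to 39.6), and no library was left out. One gene of the list from the interferon receptor to ISGF3 is not reported here.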

Additional observations from a re-analysis of the deposited data

Results flagged for a closer look

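Cmpk2 and Herc6 changed in opposite directions with the kinds of platelets, higher than control with P7 platelets and lower with adult platelets. The difference between P7 and adult platelets was 2.79 on the log2 scale for Cmpk2 and 1.75 for Herc6, each called in edgeR's test of that difference. For Herc6 the fall with adult platelets alone did not hold in 8 of 19 alternative fits.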

How the results depend on the processing

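With P7 platelets, against control and against adult platelets, all 10 genes were called higher in each of the 19 alternative fits. With adult platelets against control Ifit2, Isg20 and Cmpk2 kept their calls in each of them. Herc6 did not, so that 1 member was called lower with limma-voom and with the 2 compared groups alone, and 1 to 2 when single libraries were left out. The number of all genes called in that comparison was 2031 to 3774 when single libraries were left out. The cause was not tested. Some directions turned without a call. With upper-quartile factors the P7 values against control were -0.05 for Tyk2, -0.03 for Irf3, -0.0 for Ciao1 and -0.02 for Ciao3. With a term for Igkc-rich libraries the adult platelet values against control were 0.19 for Ifit3 and 0.02 for Herc3, and with the 2 groups alone 0.0 for Ciao1. When single libraries were left out, Tyk2 ranged from -0.01 to 0.16 with P7 platelets, and with adult platelets Ifit1 ranged from -0.04 to 0.57, Ifit3 from -0.31 to 0.26, Ifnb1 from -1.72 to 3.53 (1.82 with all libraries), Ciao1 from -0.05 to 0.03 and Herc3 from -0.08 to 0.02. The Ifit3 to Ifit3b ratio with P7 platelets minus control was -0.07, 0.05 with a pseudocount of 2 counts, and -0.17 to 0.0 without single libraries. Levels per length used exon unions, and with the longest transcript Isg20 stood at 454 and Isg15 at 180 with P7 platelets. Deviations of same-numbered libraries correlated at -0.0813 to 0.576, and those of differently numbered libraries at -0.558 to 0.428. Among the libraries of replicate 1 the values were 0.486 to 0.576, while adult platelet replicate 3 gave -0.0813 with P7 replicate 3 and -0.0768 with control replicate 3. Replicate numbers thus did not pair the libraries throughout, and whether some same-numbered libraries shared a source was not tested. With a replicate block 8565, 4228 and 5965 genes were called for P7 platelets against control, adult platelets against control and P7 against adult platelets, and no member changed its call. Of the other named genes, the block called Herc1 (adjusted p = 0.0201), Herc2 (0.00708) and Ciao2a (0.0258) with P7 platelets and Ube2l6 (0.0172) and Herc2 (0.0305) with adult platelets. Low counts limit Ifit3b most among the members, and Ifnb1 and Ifit1bl2 among the other named genes.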
